A study of Mus musculus with 3 samples.

Results

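The data are 2 microarrays that compared hippocampal gene expression in restraint-stressed mice after an injection of extracellular vesicles (EVs) from either exercised or sedentary donors. All mice were male C57BL/6J animals of 11 weeks. The RS pool held RNA of 4 mice that went through restraint for 6 h per day over 3 weeks and then received 20 μg of serum EVs from sedentary donors into a lateral ventricle. The RE pool held RNA of 4 mice with the same restraint and the same amount of EVs, from donors that had a running wheel for 4 weeks. Another array, NV, held RNA of 3 mice that were not restrained; its label speaks of vesicles, its protocol note and the study's methods of a vehicle (PBS), and its values are given beside the others as a reference only. NV also differed from RS and RE in markers of hippocampal cells, given below. Nearness of RE to NV is therefore not read as a return to the unstressed state. Tissue was taken 3 days after injection. The tissue field gives hippocampus and the free-text label ventral hippocampus. RS and RE thus shared strain, sex, age, restraint and EV injection, and differed in the donors of the EVs.

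Each pool was put on 1 array, so there was no replicate, no SD and no test, and every difference below is RE minus RS on the log2 scale between 2 pooled RNAs. A difference of 1 is a 2-fold difference, the threshold of the study's methods, and genes at or past it are called higher or lower. All 19504 genes with a symbol were compared, each by 1 probe set. Genes with a log2 signal above 6 in RS or RE numbered 11456, or 58.7%, and only these are counted below unless stated.

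Extracellular vesicles are membrane-bound particles that cells release into blood and other fluids, carrying proteins, lipids and RNA that a receiving cell can take up. Repeated restraint is a rodent model of stress that activates the hypothalamic-pituitary-adrenal axis, and the hippocampus is rich in receptors for the glucocorticoids released by it. The hippocampus is not uniform along its length or across its layers. The dentate gyrus, the CA fields, the interneurons and the ventral pole each express their own sets of genes, and the ventral pole is the part most tied to anxiety-related behaviour.

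In RE, 47 genes were at least 2-fold higher than in RS (0.41% of those past the filter) and 60 were at least 2-fold lower (0.524%). At 1.5-fold, 330 were higher (2.88%) and 556 lower (4.85%). Most genes were slightly lower, with 58.9% below 0 and 41.1% above, and the median difference over all genes was -0.07. Centring on this median gave 65 higher and 45 lower genes, and removing the trend of the difference on mean signal (a lowess curve over all genes) gave 59 and 47, so higher genes made up 43.9% of the called genes as deposited, 59.1% when centred and 55.7% with the trend removed. Across genes, which do not replicate each other, the difference had an SD of 0.33, against 0.57 for RS minus NV and 0.54 for RE minus NV. Among the 107 called genes, 58 had both arrays above 6, 28 of them higher and 30 lower. The other called genes passed the filter through 1 array alone. A gene that does so, called or not, has to be higher on that array.

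The difference also depended on signal at the upper end. The median difference was -0.02 for mean signals between 8 and 10, -0.18 between 14 and 16, and -0.41 above 16. All 17 genes with a mean signal above 18 were lower in RE, with differences from -0.45 to -1.07. They include genes as unlike as Camk2a (a synaptic kinase), Eef1a1 (translation elongation) and Fth1 (iron storage). Of the genes above 16, 3 were called lower, Ppp3ca, Gpm6a and Hpca, a calcineurin subunit, a neuronal membrane glycoprotein and the calcium sensor hippocalcin, and none of the 3 was with the trend removed. Gpm6a and Hpca also lost the call when centred. The lowess curve took up only part of this, as Ppp3ca stood at -1.07 as deposited and -0.62 with the trend removed, and the 17 genes kept a median of -0.45. Trend-removed values are given below for differences of high-signal genes that this moves by over 1.5 times.

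**Figure D1:**
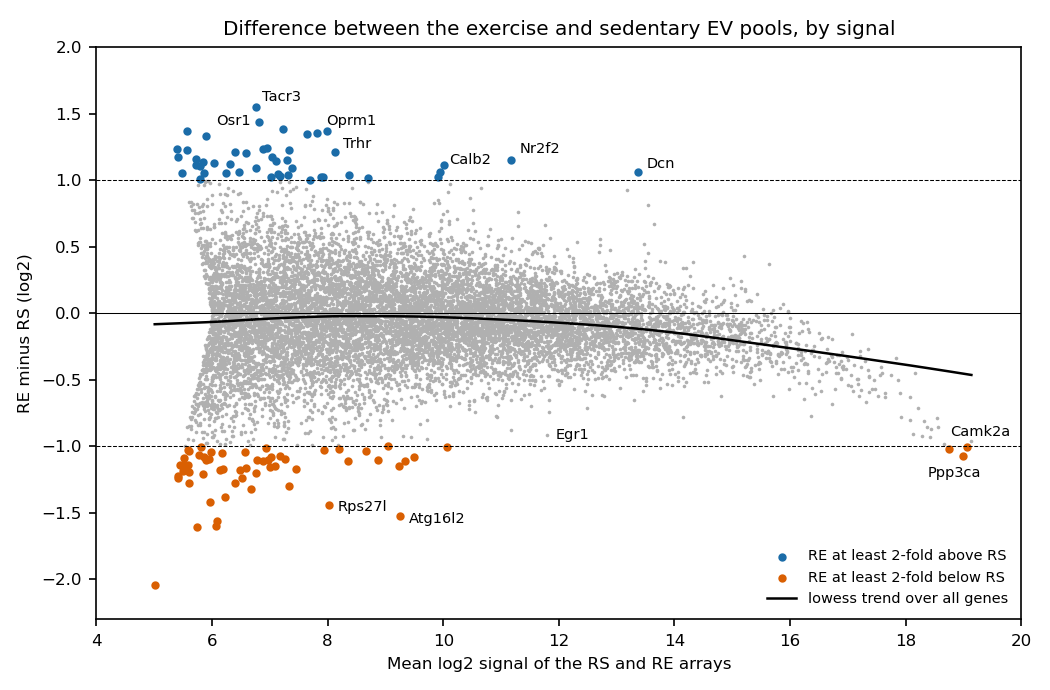
RE minus RS (log2) against the mean log2 signal of the RS and RE arrays for the 11456 genes past the filter, 1 point a gene. Blue points are the 47 genes at least 2-fold higher and orange points the 60 at least 2-fold lower in RE, dashed lines mark 2-fold, and the black lowess curve bends below 0 at high signal.

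The largest rise was that of Tacr3, the receptor of neurokinin B, a tachykinin. Its log2 signal was 7.45, 5.99 and 7.54 (NV, RS and RE), a difference of 1.55. Osr1, a zinc finger transcription factor known from embryonic mesoderm, stood at 5.49, 6.10 and 7.54 (NV, RS and RE), a difference of 1.44. Plagl1, an imprinted zinc finger factor, had 8.98, 6.54 and 7.92 in the same order, a difference of 1.39. Tacr3 in RE was thus near its NV value, Osr1 above and Plagl1 below it.

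Other rises were of single genes of unlike function. Tubgcp3, a component of the gamma-tubulin complex that nucleates microtubules, went from 7.30 in RS to 8.67 in RE, with 7.86 in NV. Other members past the filter stood elsewhere, with differences of 0.07 for Tubgcp2, -0.47 for Tubgcp4 and 0.07 for Tubgcp5. Smarcd2, a subunit of SWI/SNF chromatin remodelling complexes, had a difference of 1.17 and the F-box gene Fbxl13 of 1.21. Plpp4, a phospholipid phosphatase, differed by 1.17, from 6.46 to 7.63, and Sytl5, a synaptotagmin-like protein that binds Rab GTPases, by 1.15, from 6.72 to 7.87. Tpbg, a membrane glycoprotein that inhibits WNT signalling, was at 8.59, 6.33 and 7.57 (NV, RS and RE). The transporter gene Slc38a11 and the orphan receptor gene Gpr135 were each higher by 1.23, and both were also above their NV values of 6.17 and 6.28.

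The related zinc finger genes did not follow Plagl1 and Osr1. Plag1 differed by -0.85 and Plagl2 by -0.27, and Osr2 was below the filter. Nr2f1, which resembles Nr2f2, differed by 0.01, against 1.15 for Nr2f2.

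Further rises began below the filter in RS, so that these genes passed it through RE alone. Lbp, the plasma protein that binds bacterial lipopolysaccharide, was at 5.24 in RS and 6.57 in RE. Zc3hav1l (4.89 to 6.26), Parp4 (4.79 to 6.02), Lrrc71 (4.95 to 6.17), Rnf17 (5.14 to 6.30) and Dpy19l4 (5.98 to 7.19) were of this kind, and Tacr3, Smarcd2 and Fbxl13 were below the filter in RS too. Parp4 belongs to the poly(ADP-ribose) polymerases and is found in vaults, and Rnf17 is known from male germ cells.

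On the other side, Atg16l2 and Rps27l had the largest falls with both arrays above the filter. Atg16l2, a relative of the autophagy factor Atg16l1, was at 10.62, 10.02 and 8.49 (NV, RS and RE), a difference of -1.53. Atg16l1 itself was at 8.83, 8.83 and 8.84 (NV, RS and RE). Rps27l, a ribosomal protein paralog induced by p53, was at 8.95, 8.74 and 7.30, a difference of -1.44. Its near relative Rps27rt differed by -0.55, and probes may not fully separate such paralogs. In both genes the RE array stood apart, since RS minus NV was only -0.60 and -0.21.

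Falls with the same order of RS and NV near each other and RE below were also seen in Mycbpap (7.06, 6.87 and 5.26 in NV, RS and RE), the pseudogene Sprr2j-ps (6.91, 6.87 and 5.31) and Iqck, with a difference of -1.18. Sostdc1, a secreted antagonist of BMP and WNT signals known from choroid plexus, had 7.45, 7.58 and 6.42, and Ankrd37, a gene induced by hypoxia, 7.46, 7.66 and 6.51. Tlcd3b, a gene of ceramide metabolism, had 7.01, 7.18 and 6.01, and Mt4, a metallothionein known from squamous epithelium, had a difference of -1.17. Mt1 and Mt2, the metallothioneins that respond to glucocorticoids and metals, differed by -0.40 and -0.39, or -0.06 and -0.11 with the signal trend removed.

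In other falls RS was the high array. Gstcd, named for its glutathione transferase-like domain, was at 4.58, 6.54 and 4.93 (NV, RS and RE), a difference of -1.61. The X-linked gene Xlr4b had 5.45, 7.34 and 6.01, Sox7, a transcription factor of endothelial cells, 4.92, 6.24 and 4.97, and Nfatc2ip, which binds NFAT factors, 5.41, 6.45 and 5.24. Il1r1, the interleukin 1 receptor, was at 8.08, 9.89 and 8.79 (NV, RS and RE), and was called lower with -1.11. The remaining named falls were Serpina11 (-1.30), Crisp3 (-1.24), Znrd1as (-1.24), Samsn1 (-1.20), Ephb3 (-1.18), Spats1 (-1.17) and Hipk4 (-1.14). In RE, Crisp3 was at 5.90, Znrd1as at 4.79, Samsn1 at 5.01, Ephb3 at 5.54 and Hipk4 at 5.01. Of the named falls, Gstcd, Mycbpap, Sprr2j-ps, Iqck, Mt4, Sox7, Nfatc2ip, Crisp3, Znrd1as, Samsn1, Ephb3 and Hipk4 were below the filter in RE. They passed it through RS alone, so they had to be lower in RE. Znrd1as is annotated as an antisense transcript, and no source used here states whether the probes separate the strands.

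**Figure D2:**
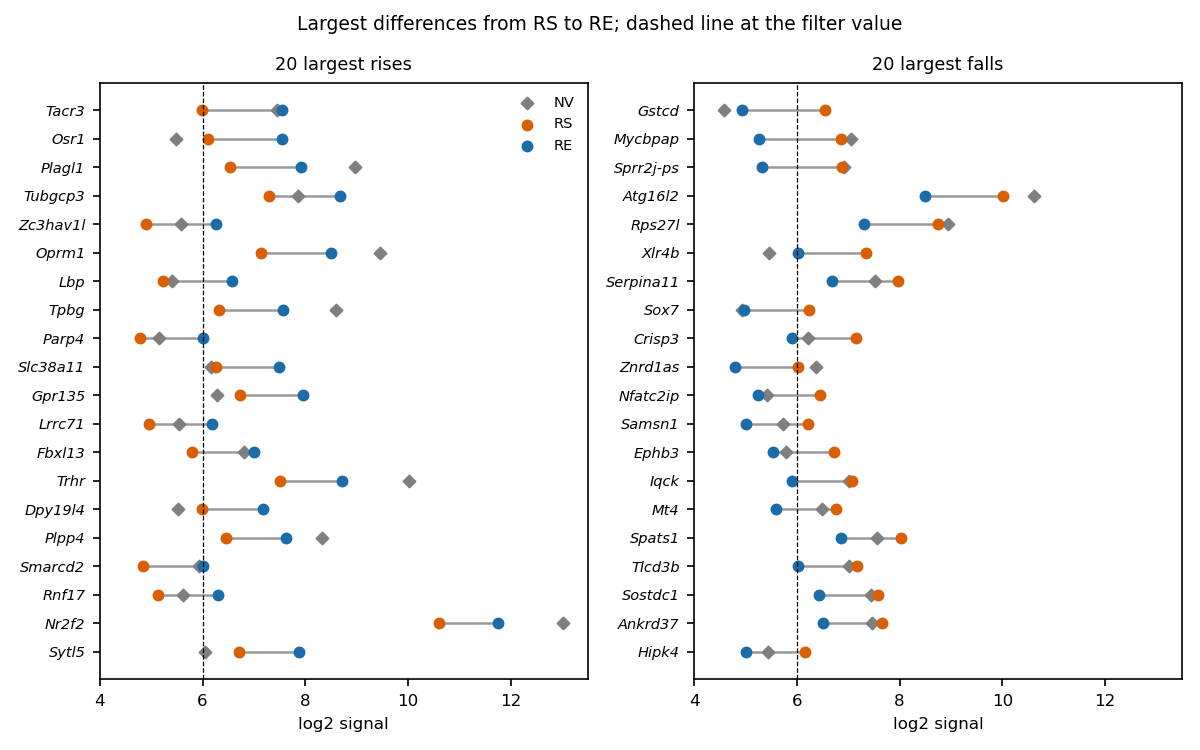
Log2 signal of the 20 largest rises (left) and 20 largest falls (right) from RS (orange) to RE (blue), with NV as grey diamonds and the filter value of 6 as a dashed line. Each symbol is 1 pooled array, and in many of these genes 1 end of the line lies below the filter.

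Receptors for peptides were among the leading rises. Of 90 genes for receptors of peptide hormones and neuropeptides, 35 were past the filter, 3 were called higher (Tacr3, Oprm1 and Trhr) and 1 lower (Rxfp1, which lost the call when centred), beside a background of 0.41% and 0.524%, and the median was 0.11 beside -0.07 over all genes. Oprm1, the μ opioid receptor, was at 9.45, 7.14 and 8.49 (NV, RS and RE), a difference of 1.35 or 2.55-fold. Trhr, which binds thyrotropin-releasing hormone, was at 10.03, 7.51 and 8.72, a difference of 1.21 or 2.31-fold. In both, RE lay between RS and NV, whereas Tacr3, 2.93-fold higher than in RS, reached NV. Tacr3, Oprm1 and Trhr were chosen by the study from these same arrays, along with Gabrr1 and Cysltr1, so their rise and their count beside the background are a description. Tacr3 was below the filter in RS and passed it through RE alone, so it had to be higher in RE. Gabrr1 (4.36 in RS and 5.70 in RE) and Cysltr1 (4.92 and 5.97) did not pass the filter.

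Below 2-fold, Cckbr, the brain receptor of cholecystokinin, was at 10.28, 7.30 and 8.18 (NV, RS and RE), a difference of 0.88. Oxtr, the oxytocin receptor, had a difference of 0.53, the bombesin-type receptor gene Nmbr 0.53, the somatostatin receptor gene Sstr2 0.49 and the neuropeptide Y receptor gene Npy5r 0.55. Rxfp1, a relaxin receptor, went the other way, at 8.52, 9.18 and 8.14 (NV, RS and RE), a difference of -1.04. Npy4r, a receptor of pancreatic polypeptide, stood at 6.03 in RS and 5.03 in RE, just short of the threshold. Crhr1, a receptor of corticotropin-releasing hormone, was at 7.99, 7.02 and 6.33, a difference of -0.68. The family therefore held 18 genes above 0 and 17 below, with quartiles of -0.32 and 0.46, against -0.25 and 0.14 over all genes. Npy4r, Rxfp4, Agtr1a, Npffr1 and Vipr1 passed the filter through RS alone and had to be below 0. Ramp3, like Tacr3, passed it through RE alone and had to be above 0. The 55 members that did not pass the filter are not counted here, and over all 90 the median was -0.01.

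**Figure D3:**
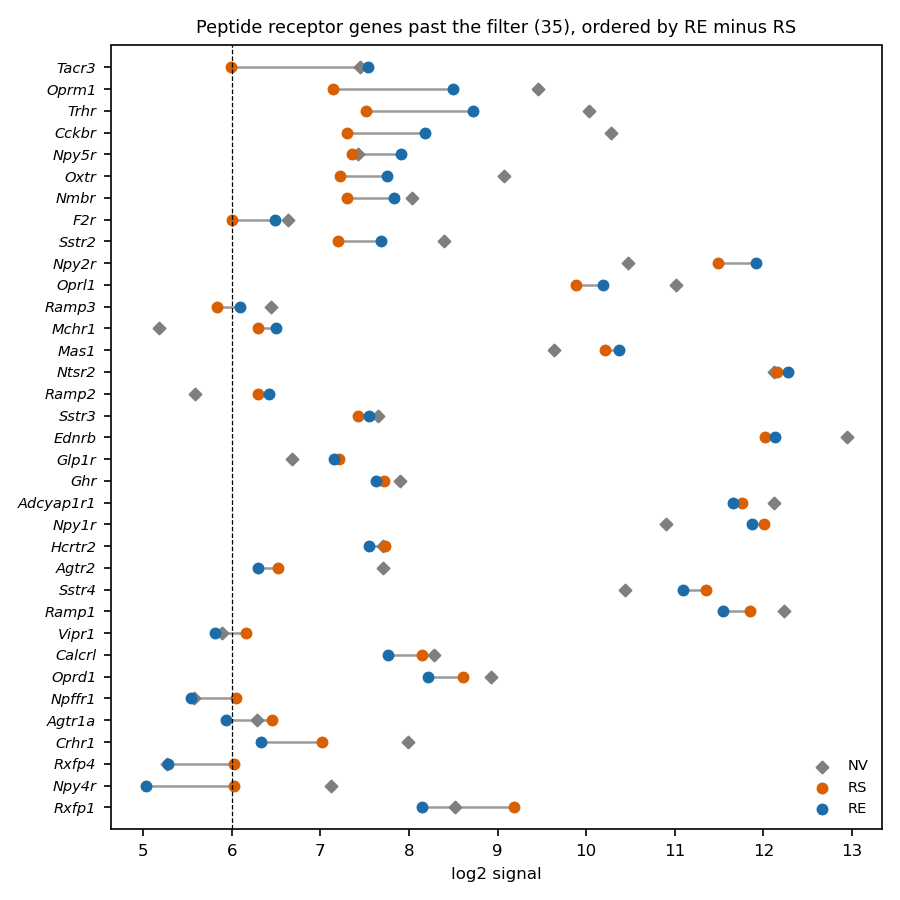
Log2 signal of the 35 peptide receptor genes past the filter, ordered by RE minus RS, with NV as grey diamonds, RS in orange, RE in blue and the filter value as a dashed line. Tacr3, Oprm1 and Trhr have the longest lines to the right of RS and Rxfp1 and Npy4r the longest to its left.

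The ligands of the leading receptors gave a mixed picture. Tac2, which encodes neurokinin B, and Trh were below the filter, Tac1, which encodes substance P, differed by 0.34, and Penk, a source of opioid peptides, by -0.48. Of 43 measured neuropeptide genes, 23 were past the filter, none was called, and the median was 0.15. Pnoc (nociceptin) was at 9.14, 7.68 and 8.42 (NV, RS and RE), a difference of 0.75. Agt, the angiotensin precursor of astrocytes, differed by 0.70, while Nts (neurotensin) differed by -0.99, with 7.35, 8.22 and 7.23, and Apln (apelin) by -0.77.

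The other families of transmitter receptors had medians between -0.33 and 0.06. The 14 ionotropic glutamate receptor genes past the filter had a median of -0.03 with none called. Grin3a, an NMDA receptor subunit, was at 10.23, 8.53 and 9.23 (NV, RS and RE), a difference of 0.70, and Gria2, an AMPA receptor subunit of high signal, differed by -0.51 as deposited and by -0.21 with the trend removed. The 8 GABA-A subunits had -0.10 (-0.01 with the trend removed) and the 5 metabotropic glutamate receptors -0.16 (-0.09 with the trend removed). The 2 GABA-B subunits had -0.33 (-0.09 with the trend removed) and the 3 glycine receptor subunits -0.05 (0.16 with the trend removed). No gene of these families was called. Of the serotonin receptors, 9 were past the filter with a median of 0.06. Htr2c, a receptor also found in choroid plexus and the ventral hippocampus, was at 11.88, 9.62 and 10.53 (NV, RS and RE), a difference of 0.91, and Htr1b differed by -0.62.

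The 5 muscarinic receptors had a median of -0.10, with Chrm5 at 0.91 (6.67 in RS and 7.58 in RE), and the 4 nicotinic subunits past the filter had -0.02, with Chrna5 at -0.68. Hrh3, the histamine receptor on nerve endings, was at 11.47, 10.19 and 11.13 (NV, RS and RE), a difference of 0.94, in a family of 8 dopamine, adrenergic, histamine and trace amine receptors whose median was -0.19, or 0.16 with a value above 7. The 37 orphan receptors had a median of 0.00 with Gpr135 called higher, and the 15 adhesion receptors -0.14 with Adgrl2, a latrophilin, at -0.93. The 11 lipid mediator and purine receptors had -0.24, with Lpar4 at -0.70 and P2rx6 at -0.68, and none was called.

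Of 59 potassium channel genes past the filter, 3 were called higher and none lower, beside 0.41% of all genes called higher, and the median was -0.06. Kcnh2, the ERG channel, was at 8.04, 6.84 and 7.92 (NV, RS and RE), a difference of 1.09. Kcnf1, a modifier subunit of voltage-gated channels, was at 9.44, 7.85 and 8.88, a difference of 1.04, and the inward rectifier gene Kcnj13 differed by 1.13 from an RS value of 5.47, with 6.89 in NV, and passed the filter through RE alone. In all 3 the RE array stood closer to NV than to RS. Sodium, calcium and HCN channels (28 genes, median -0.05), TRP channels (10 genes, -0.13) and chloride channels with anoctamins (14 genes, 0.15, or 0.01 with no filter) had none called. Their furthest members were Hcn2 at 0.64, Trpc6 at -0.95 and Clcn5, a chloride and proton exchanger of endosomes, at 0.71.

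The highest median of any family or list with at least 8 genes past the filter was that of the ventral hippocampus, at 0.64 (quartiles 0.24 and 0.95). Of 15 listed genes, 14 were measured and 12 were past the filter. Of these, 11 were above 0, against 41.1% of all genes, and 3 were called higher, against 0.41%. Nr2f2, the nuclear receptor COUP-TFII, was at 13.01, 10.60 and 11.75 (NV, RS and RE). Calb2, the calcium-binding protein calretinin, was at 11.36, 9.42 and 10.48, and Dcn, the matrix proteoglycan decorin, at 13.96, 12.83 and 13.89. These 3 genes had high signal on every array and differed by 1.15, 1.06 and 1.06. Timp2, an inhibitor of metalloproteinases, differed by 0.81, Resp18, a protein of secretory granules, by 0.71, and Grp, gastrin-releasing peptide, by 0.58. In Nr2f2, Calb2, Timp2 and Resp18 the RE array lay between the other 2, while Dcn in RE was close to NV, with RE minus NV at -0.07. Kctd4 was the member below 0, at 12.81, 13.84 and 13.53, a difference of -0.31 or -0.18 with the trend removed. This list was drawn up with the general direction of ventral genes known from earlier work on these arrays. In pooled tissue a change in the share of a cell type or subregion cannot be told apart from a change in RNA per cell, and this holds for all values here.

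As deposited, the lowest median was that of granule cells of the dentate gyrus, at -0.38. With the signal trend removed it was -0.26, beside -0.27 for the acute phase and innate response list, which was also lower, at -0.48, with a value above 7, as were olfactory receptors by a small margin. Of 19 measured genes all passed the filter, 17 were below 0, against 58.9% of all genes, and 1 was called lower. That gene, Tdo2, a tryptophan dioxygenase, was at 4.42, 7.71 and 6.64 (NV, RS and RE), a difference of -1.08. The cation channel gene Trpc6 was at 7.36, 10.19 and 9.24, and Dsp, the desmosome protein desmoplakin, at 4.85, 8.42 and 7.62, with differences of -0.95 and -0.80. Sema5a, a guidance molecule, differed by -0.64 and Prox1, the transcription factor that maintains granule cell identity, by -0.33, while Calb1 (calbindin) differed by -0.03, or 0.07 with the trend removed. All 4 of Tdo2, Trpc6, Dsp and Sema5a were highest in RS and lowest in NV, the reverse of the order in Nr2f2 and Calb2.

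Other regional lists were less uniform. The 10 CA1 genes past the filter had a median of -0.16 (-0.05 with the trend removed). The transcription factor Pou3f1 was called lower (7.53 in RS, 6.42 in RE), Wfs1 stood at -0.65 and Dcn, shared with the ventral list, was called higher. The 10 CA2 and CA3 genes had -0.15. Among these, Necab2, a calcium-binding protein, was called higher, at 8.02, 6.53 and 7.67 (NV, RS and RE), and Iyd, an iodotyrosine deiodinase, was called lower, at 7.93, 9.54 and 8.54, a call lost when centred and with the trend removed. Of 18 thalamus and habenula genes, 10 were past the filter with a median of -0.08. Calb2, also in that list, was called, and Zic1 differed by 0.84 and Ptpn3 by -0.75. Tcf7l2, a defining transcription factor of the thalamus, was at 12.89, 8.21 and 8.54 (NV, RS and RE), and on a log2 scale the summed signal of the thalamus and habenula list was 14.26, 12.88 and 12.84, while the median signal of its 18 members was 7.68, 7.85 and 8.19.

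Markers of hippocampal tissue were present on both arrays, including Prox1 (12.52 in RS, 12.19 in RE) and Neurod6 of pyramidal cells (15.61 and 15.28). Gad1 of inhibitory neurons (11.59 and 11.79), Gfap of astrocytes (13.02 and 12.71) and Mbp of myelin (17.36 and 17.04) were present too. In NV, Prox1 was at 9.82, Neurod6 at 13.16 and Gfap at 11.99, each below RS and RE. Mbp in NV was also below both, while Gad1, at 12.07, was above both. Whether the NV pool had the same tissue make-up as RS and RE was not tested. Values of RE near NV therefore cannot be read as a return to the unstressed state. Of tissue that a dissection could add, blood genes were low, with 1 of 10 above 6 in RS and none in RE. Choroid plexus and ependyma genes above 6 numbered 6 of 14 on each array, with a summed log2 signal of 10.26 in RS and 10.13 in RE. Fibroblast and meninges genes had a summed signal of 14.04 in RS and 14.92 in RE, with 8 of 18 above 6 on each, but the median signal of the list was 5.82 in RS and 5.49 in RE. Without Dcn and Ptgds, its members of highest signal, the sum was 11.48 in RS and 11.54 in RE. Ptgds, prostaglandin D synthase of the leptomeninges, was at 14.39, 12.72 and 13.64 (NV, RS and RE), but Slc6a13 and Col1a1 of the same list differed by -0.75 and -0.73. The part of these markers in the differences of the ventral genes was not tested.

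**Figure D4:**
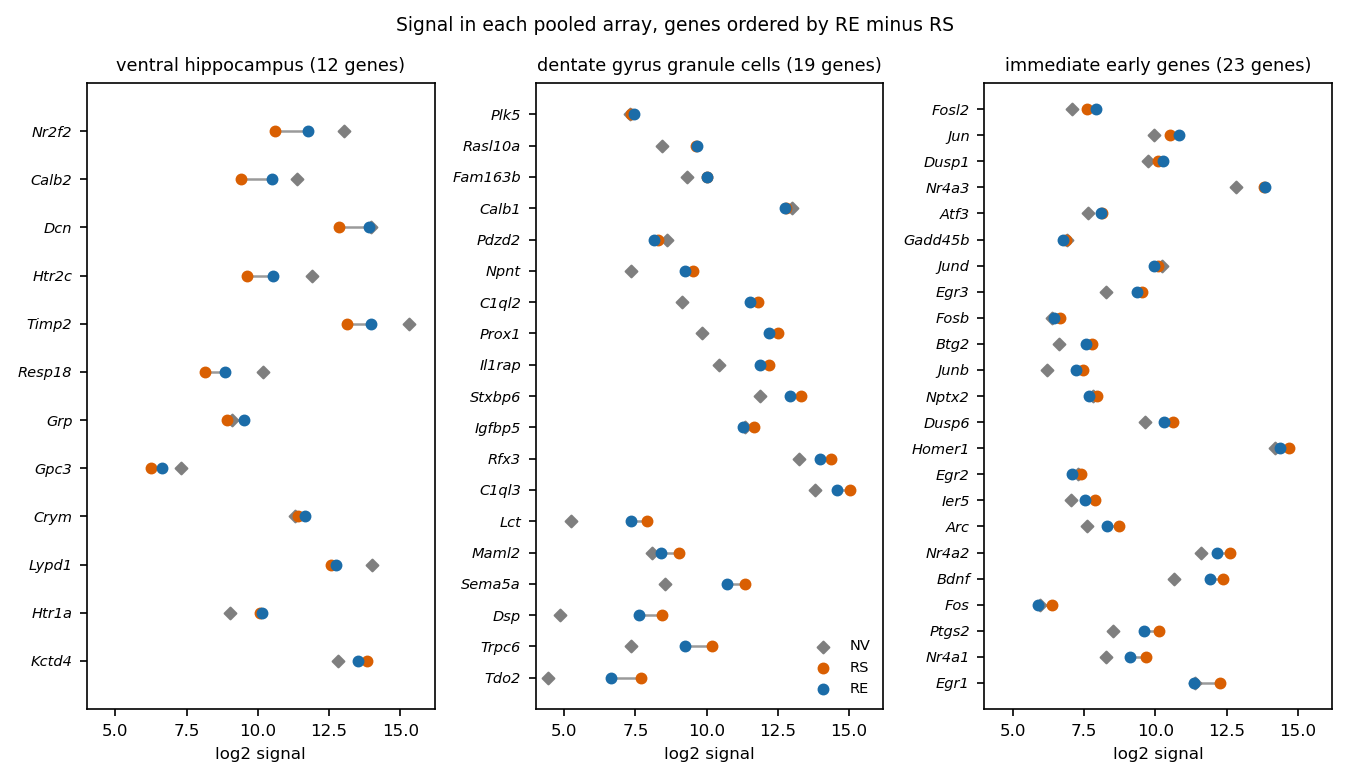
Log2 signal of each gene past the filter in the ventral hippocampus list (left), the dentate gyrus list (middle) and the immediate early gene list (right), with NV as grey diamonds, RS in orange and RE in blue, ordered by RE minus RS. RE lies right of RS for 11 of 12 ventral genes and left of it for 17 of 19 dentate genes and 19 of 23 immediate early genes.

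Genes of inhibitory interneurons, which use GABA, were more often above 0 than below. Of 21 past the filter, 16 were above 0, against 41.1% of all genes, with a median of 0.19 (0.26 with the trend removed) and Calb2 called higher. The homeobox genes Dlx2 and Dlx1, which specify these cells, differed by 0.75 and 0.57, the GABA transporter gene Slc32a1 by 0.46 (11.49, 10.08 and 10.54 (NV, RS and RE)), Sst (somatostatin) by 0.37 (0.61 with the trend removed) and Npy by 0.40. The exceptions were led by Lhx6, a factor of parvalbumin and somatostatin cells, at 6.51, 7.19 and 6.38 (NV, RS and RE), and by Penk at -0.48, with Pvalb at -0.13. Genes of excitatory neurons had a median of -0.33, with 9 of 10 below 0, against 58.9% of all genes. These were genes of high signal, Camk2a at -0.98 among them, and with the trend removed the median was -0.11 and Camk2a stood at -0.55.

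Glial and vascular lists had few called genes. Genes of oligodendrocytes and myelin had a median of 0.09 over 18, with the transcription factor Myrf at 0.39, Mag at 0.37 and Opalin at 0.37. Mbp stood at -0.32 as deposited and 0.01 with the trend removed. Oligodendrocyte precursors had 0.03 over 10 and astrocytes -0.16 over 15 (-0.07 with the trend removed). Microglia with perivascular macrophages had -0.04 over 12, and none was called in any of these 4 lists. Astrocyte genes of high signal were again lower as deposited, as in the glycolytic gene Aldoc, with -0.60 as deposited and -0.25 with the trend removed. Endothelial genes had a median of 0.02 over 13 and went both ways. Kdr, a VEGF receptor, was at 0.99 (6.68 in RS, 7.67 in RE). Cdh5 (VE-cadherin) stood at -0.73 and Sox7 was called lower, both below the filter in RE and past it through RS alone. Of 13 pericyte genes 5 were past the filter, with a median of 0.35 and with Rgs5 at 0.62 (9.22 and 9.85) and Pdgfrb at 0.46.

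Immediate early genes, which neurons transcribe within minutes of activity, were mostly lower in RE. Of 28 measured, 23 were past the filter, 19 were below 0, against 58.9% of all genes, and none was called at 2-fold, with a median of -0.28 (-0.20 with the trend removed). Egr1, a zinc finger factor, was at 11.40, 12.26 and 11.34 (NV, RS and RE), a difference of -0.92. Nr4a1 was at 8.26, 9.66 and 9.10, Ptgs2 (cyclooxygenase 2) at 8.53, 10.11 and 9.61, and Fos at 5.95, 6.39 and 5.90. These 3 differed by -0.56, -0.50 and -0.49. Fos, counted among the 19, was below the filter in RE and passed it through RS alone, so it had to be lower. The synaptic gene Arc differed by -0.42, Nr4a2 by -0.45 and Bdnf, a neurotrophin, by -0.45. Egr1 and Fos in RE thus lay close to NV, whereas Nr4a1, Ptgs2, Arc and Bdnf in RE stayed above NV. Jun (0.30) and Fosl2 (0.32) were higher, and both were higher than in NV.

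Many of these genes respond to the factor CREB, which binds the cAMP response element. Its half-site is TGACG, or CGTCA on the other strand, and promoter windows from RefSeq (GRCm38.p6, 250 bases before to 50 after the start of each gene) were searched for it on both strands. Windows were found for 19 of the 23 immediate early genes, and 11 of them (57.9%) held the half-site, against 5681 of 27025 (21.0%) of all promoter windows. The full element TGACGTCA, which contains the half-site, was in 2 of the 19 (10.5%) and in 1.88% of all windows. Of the ventral hippocampus genes 7 had a window and none held the half-site, and of the dentate gyrus genes 3 of 18 did (16.7%). Within the immediate early genes the 11 with the half-site had a median difference of -0.23 and the 8 without it -0.21. The windows below are those of the 3 immediate early genes furthest below 0 among those with a window, of Tacr3, the largest rise, which holds the half-site once, and of Nr2f2, which does not hold it. Capitals mark the half-site on either strand, and each window reads 5′ to 3′ along the gene.
Nr4a1 (chr15:101266596-101266895, + strand): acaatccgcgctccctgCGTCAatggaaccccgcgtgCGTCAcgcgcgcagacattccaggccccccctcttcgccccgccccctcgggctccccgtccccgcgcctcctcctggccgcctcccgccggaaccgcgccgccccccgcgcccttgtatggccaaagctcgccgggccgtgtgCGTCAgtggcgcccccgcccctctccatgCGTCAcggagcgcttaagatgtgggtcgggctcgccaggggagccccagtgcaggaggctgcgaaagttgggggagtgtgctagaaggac
Ptgs2 (chr1:150099781-150100080, + strand): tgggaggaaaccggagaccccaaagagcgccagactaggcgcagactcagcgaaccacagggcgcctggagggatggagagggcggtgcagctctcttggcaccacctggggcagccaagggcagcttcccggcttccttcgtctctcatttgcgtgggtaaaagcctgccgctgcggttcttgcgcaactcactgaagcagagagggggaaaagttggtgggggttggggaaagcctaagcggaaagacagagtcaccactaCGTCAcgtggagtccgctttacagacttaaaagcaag
Fos (chr12:85473640-85473939, + strand): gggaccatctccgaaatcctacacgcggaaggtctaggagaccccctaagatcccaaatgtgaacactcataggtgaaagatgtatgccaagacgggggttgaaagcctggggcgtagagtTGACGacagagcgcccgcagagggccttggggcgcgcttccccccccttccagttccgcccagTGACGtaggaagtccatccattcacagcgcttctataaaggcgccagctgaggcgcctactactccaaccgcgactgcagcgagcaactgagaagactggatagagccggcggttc
Tacr3 (chr3:134828757-134829056, + strand): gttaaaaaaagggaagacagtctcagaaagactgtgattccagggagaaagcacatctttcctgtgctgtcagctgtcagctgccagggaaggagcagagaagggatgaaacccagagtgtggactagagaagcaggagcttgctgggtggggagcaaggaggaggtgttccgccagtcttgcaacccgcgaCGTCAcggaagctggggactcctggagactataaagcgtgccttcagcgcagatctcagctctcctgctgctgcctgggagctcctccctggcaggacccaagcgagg
Nr2f2 (chr7:70366697-70366996, - strand): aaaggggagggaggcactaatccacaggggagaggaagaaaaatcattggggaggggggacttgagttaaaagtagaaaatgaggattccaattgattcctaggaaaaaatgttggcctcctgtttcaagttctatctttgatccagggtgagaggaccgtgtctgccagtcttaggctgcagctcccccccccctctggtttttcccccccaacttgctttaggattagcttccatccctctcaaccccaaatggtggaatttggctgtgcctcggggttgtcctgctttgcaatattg

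The half-site lay at 4 places in the Nr4a1 window, the nearest to the start at position -40, at 2 in the Fos window, at -129 and -66, and at -58 in the Tacr3 window. In Ptgs2 it lay after the start, at position 13. A match gives the letters only and no binding was measured.

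Genes listed for the glucocorticoid response differed little between the pools. The list is not limited to genes that glucocorticoids induce, as it also holds Crhr1 (-0.68). Of 21 past the filter, none was called, 15 were below 0, against 58.9% of all genes, and the median was -0.09 (-0.03 when centred). Fkbp5, the chaperone gene much used as a readout of glucocorticoid action, was at 12.60, 12.95 and 12.86 (NV, RS and RE), and Tsc22d3 (GILZ) differed by 0.20, Sgk1 by 0.17 and Per1 by 0.36. Nr3c1, the glucocorticoid receptor, differed by -0.12. Ddit4, an inhibitor of mTORC1, was furthest from 0, at 8.74, 8.91 and 8.17. Factors linked to exercise in the literature gave a median of -0.01 over 28 genes with none called. Igfbp2 was at 10.01, 9.03 and 9.70 (NV, RS and RE), a difference of 0.67, and Cpt1a, of fatty acid oxidation, differed by 0.50, Ppargc1a by 0.14, Igf1 by 0.01, Vegfa by -0.39 and Bdnf by -0.45.

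Acute phase and innate response genes had a median of -0.35 over 8 of 23, with wide quartiles of -0.64 and 0.36. Serpina3n, a marker of reactive astrocytes, was at 8.95, 10.86 and 10.21 (NV, RS and RE), and Cp (ceruloplasmin) differed by -0.66 and Saa3 by -0.63, while Lbp was called higher and Vcam1 differed by 0.61. Saa3 (6.24 in RS, 5.60 in RE) passed the filter through RS alone and Lbp through RE alone, so the filter fixed the direction of each. The cytokine genes Il1b, Tnf and Il6 did not pass the filter. Il18bp, which binds interleukin 18, was higher by 1.09, from 6.21 in RS to 7.30, and Tapbp, the tapasin of MHC class I loading, was lower with -1.01, at 10.40, 10.56 and 9.56, a call lost when centred and with the trend removed. Il18bp and Tapbp were picked after their values were seen.

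The IGF, FGF and WNT families had no gene called. The 12 genes of the IGF and insulin family past the filter had a median of 0.19, or 0.03 over all measured members. Of the 12, 10 were above 0, against 41.1% of all genes. Igfbp2 was the furthest, and Igf1r and Igfbp5 stood at -0.39 and -0.38. The 13 FGF genes had 0.11, with Fgf2 at 0.57 (6.37 in RS and 6.94 in RE) and Fgf22 at 0.52, and the 18 WNT genes had 0.09 (-0.11 over all measured members, with no filter), with the receptor genes Fzd2 and Fzd7 at 0.52 and 0.48 and Fzd1 at -0.41. Ephrins and their Eph receptors, which guide axons by contact between cells, had a median of -0.26 over 17, but the 2 sides differed in direction. The 6 ephrin genes were all above 0, against 41.1% of all genes, with a median of 0.44, led by Efnb2 (11.43 in RS and 12.09 in RE) and Efnb3 (9.64 and 10.28). Of the 11 Eph receptor genes 9 were below 0, against 58.9% of all genes, with a median of -0.39 and with Ephb3 called lower, whereas Ephb6 stood at 0.83. Ephb3 was at 6.72 in RS and 5.54 in RE and passed the filter through RS alone. The split of ephrins and receptors by role was made after the values were seen.

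Genes of cell upkeep mostly stayed close to the median of all genes. Autophagy genes had -0.04 over 30, with Atg16l2 the 1 gene called, Tfeb at -0.43 and Atg13 at 0.37. p53 targets and cell death genes had -0.20 over 15. Rps27l was called, Trp53inp1 was at 7.31, 8.38 and 7.45 (NV, RS and RE), a difference of -0.93, and Bbc3 (PUMA) differed by -0.47. Tetraspanins and ESCRT genes, which act in vesicle formation, had -0.04 over 36 with none called, the EV marker genes Cd9, Cd63 and Cd81 differing by -0.05, 0.32 and -0.40 (Cd81 -0.08 with the trend removed). Subunits of respiratory complexes II and III had a median of 0.10 over 13, with 7 above 0 and 6 below, beside 41.1% of all genes above 0. The 4 succinate dehydrogenase genes, set apart after the values were seen, were all above 0, between 0.10 and 0.34. In complex III, Uqcrfs1 differed by -0.41, Uqcrc2 by -0.38 and Uqcrb by -0.39 (-0.06 with the trend removed). Predicted targets of the EV miRNAs that the study names, as listed by the prediction programs TargetScan and miRDB, had medians of -0.11 over 89 genes and -0.07 over 94. None of the former and 1 of the latter, Gpm6a, was called, at -1.02 as deposited and -0.58 with the trend removed.

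Families that the hippocampus is not known to use were among the lowest. Olfactory receptors had a median of -0.29 over the 43 of 1091 past the filter, keratins -0.26 over 10, the defensin, SPRR, late cornified envelope and keratin-associated genes -0.23 over 36, and predicted genes of the Gm series -0.23 over 145. Their median signals lay between 6.1 and 7.3, near the filter. Of 70 olfactory, vomeronasal and taste receptor genes past the filter, 1 was called higher and 5 lower, or 8.57% against 0.934% of all genes past it, with Vmn2r32 the furthest at -2.04 (6.03 in RS and 3.99 in RE). A gene near the filter can pass it through 1 array alone and then has to differ, so these counts are no result about the families.

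**Figure D5:**
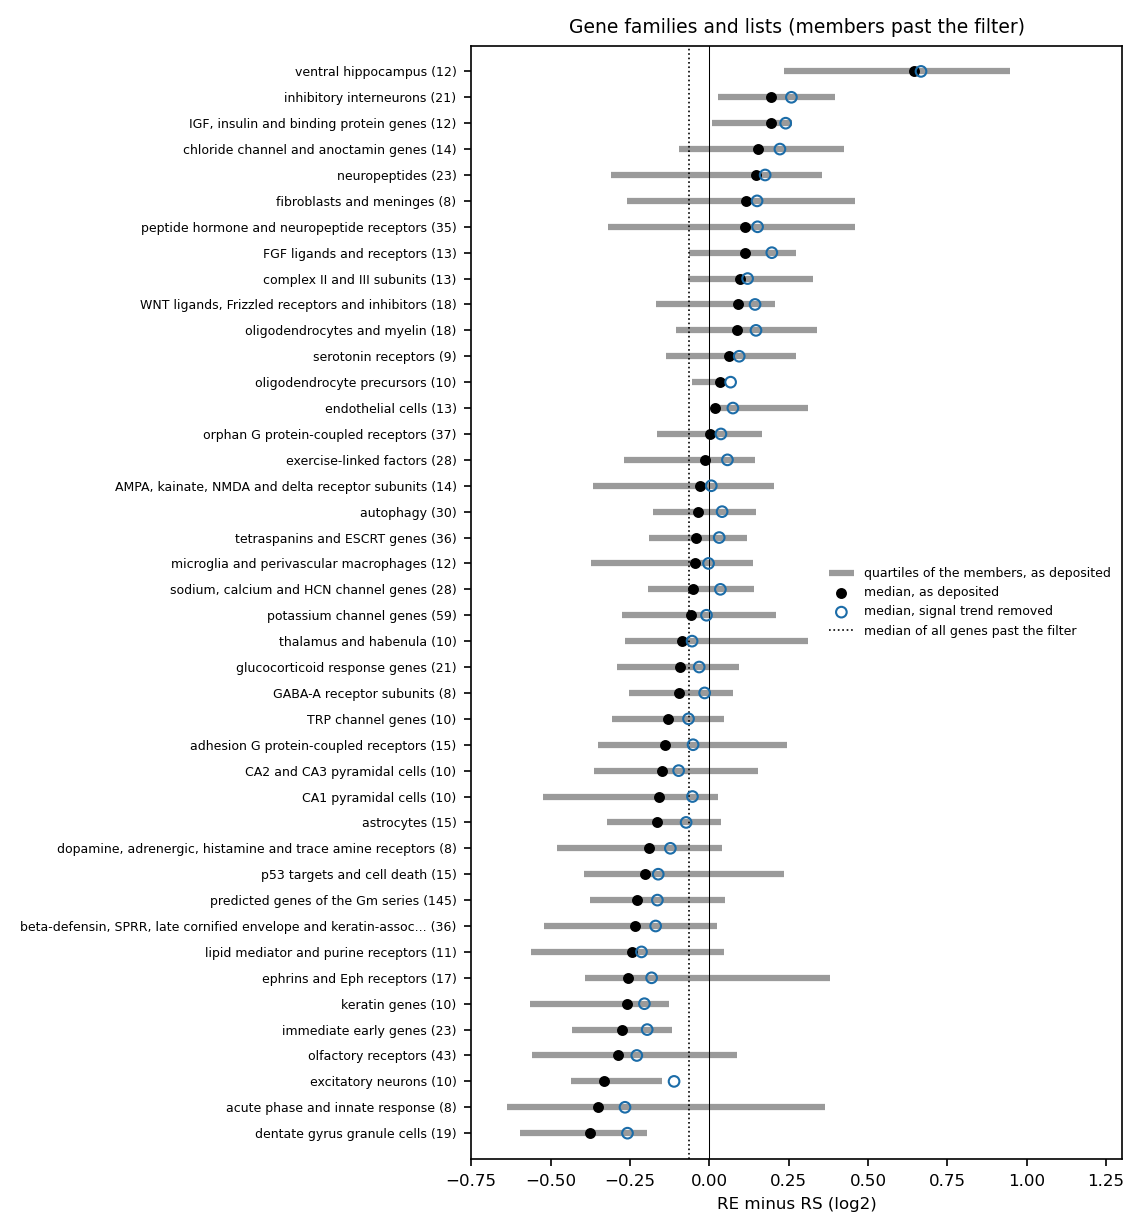
Median RE minus RS (log2) of the described gene families and lists with at least 8 members past the filter, whose number is in brackets, with the quartiles of the members as bars. Black points are values as deposited, open circles those with the signal trend removed, and the dotted line is the median of all genes past the filter, -0.07; the ventral hippocampus is furthest right at 0.64 and the dentate gyrus furthest left at -0.38, both as deposited.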

How the data were processed

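RNA of each group was pooled and hybridised to 1 Affymetrix whole-transcript array. The authors deposited log2 signals of 22205 probe sets, between 2.71 and 19.9. RMA and Affymetrix Power Tools are named in the submitters' processing notes, with no version, and no source used here states which step took some values above 16. Array medians were 6.64 (NV), 6.62 (RS) and 6.55 (RE). Array signal has no read depth, and the number of arrays limits the precision.

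The platform annotation gave 1 symbol for 19571 probe sets and none for 2634. Of several probe sets (55 genes), the highest over the 3 arrays was kept. Differences were taken as RE minus RS, a filter asked for a value above 6 in RS or RE, and the signal trend was a lowess curve (span 0.3) over all genes. The steps were tested on simulated data with large planted differences and no signal trend, which checks the calculation and not the differences of these arrays. No test across samples was run.

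The 96 families were formed by symbol and the 28 lists from textbook knowledge and the study's gene sets, and members and lists were chosen with earlier results of these data known. Named are the 20 largest rises and falls, leaving out predicted, clone-named, small RNA, antigen receptor and chemosensory genes, the 10 families or lists with the highest and 10 with the lowest median among those with at least 8 genes past the filter, receptor, channel, region, cell type and stress lists whatever their median, and up to 4 members of each. Further members were picked after their values were seen. Alternatives were other filters, centring, the lowess trend, the mean of probe sets and a 1.5-fold threshold. Tools were statsmodels 0.14.6 (lowess), matplotlib 3.10.9 (figures), pandas 2.3.3, numpy 2.4.6 and python 3.11.15. Behaviour, muscle and EV experiments of the study are not analysed here.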

Additional observations from a re-analysis of the deposited data

How the results depend on the processing

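No paired analysis was possible because each group was 1 pooled array without a replicate number, and no replicate could be left out. The counts of genes called at 2-fold followed the filter on signal: 47 higher and 60 lower with a value above 6 in RS or RE, 86 and 141 with no filter, 31 and 33 with a value above 7, and 39 lower with a mean above 6, where 35 were higher. With both arrays above 7, an alternative chosen after seeing the data, 13 were higher and 15 lower. At 1.5-fold the counts were 330 and 556. The counts moved by less than 1.5 times when centred, with the trend removed, with probe sets averaged or with a value above 6 asked for in any of the 3 arrays. Of the 42 family and list medians described, 14 changed sign under at least 1 setting, all of them no more than 0.189 from 0 as deposited. Centring turned 7 and trend removal 5, each within 0.0582 of 0, and the filters turned the others. The WNT median was -0.1057 without a filter. Among medians at least 0.1 from 0, the peptide receptors stood at -0.011 without a filter and -0.038 when any of the 3 arrays could pass a gene, fibroblasts and meninges at -0.051 in both, neuropeptides at -0.012 without a filter, and the dopamine, adrenergic, histamine and trace amine receptors at 0.16 with a value above 7. Centring, trend removal and averaging of probe sets were run on the differences of 215 genes fixed by the naming rule. Of these, 2 changed sign, Gabbr2 from -0.17 to 0.07 with the trend removed and Glrb from -0.05 to 0.02 when centred and 0.16 with the trend removed, and no called gene did. Over these 3 settings the 215 genes had 25 moves of at least 0.1 in a difference under 2-fold, 4 gains of a call (Hrh3 when centred, Ptgds with the trend removed, Kdr in both) and 3 losses (Rxfp1 when centred, Iyd in both). Other genes named above changed as well. Calb1 turned from -0.03 to 0.07 with the trend removed. Gpm6a, Hpca and Tapbp lost the call when centred and with the trend removed, and Ppp3ca with the trend removed. All values rest on 1 array per group. The median difference was furthest from 0 above a mean signal of 16.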
